A study of Mus musculus with 9 samples.

Results

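The genes described here are 10 parts of the NF-κB system: the 5 NF-κB subunits (Rela, Rel, Relb, Nfkb1 and Nfkb2), 3 classical IκB inhibitors (Nfkbia, Nfkbib and Nfkbie) and the feedback genes Traf1 and Tnfaip3. They were taken by name from a table of 41096 genes. All 10 were present on 1 row each and all 10 passed the filter on low values. RNA of cells rinsed out of the peritoneal cavity was compared between 4 diabetic and 5 control samples. Diabetic samples came from APOE-/- mice made diabetic with streptozotocin, which kills insulin-producing cells, injected at 40 mg/kg daily for 5 days when 8 weeks old. Control samples came from APOE-/- mice given citrate buffer on the same schedule. Every mouse, diabetic or control, then ate a western diet for 8 weeks, received 1.5 mL of 3% thioglycollate, which irritates the cavity and recruits leukocytes, and was lavaged with 10 mL of saline 3 days later. The labels name the cells peritoneal macrophages and give no sorting, no sex and no strain background, nor do they say whether a sample is 1 mouse or a pool.

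NF-κB is a family of dimeric transcription factors that switch on inflammatory, survival and lymphoid genes. In resting cells the IκB proteins hold the dimers in the cytoplasm, and the IκB kinase complex marks IκB for destruction when Toll-like, interleukin-1 or tumour necrosis factor receptors signal. The alternative arm runs through the kinase NIK, the processing of p100 to p52 and the subunit RelB. Free NF-κB transcribes its own brakes, among them IκBα and A20, so that the messenger RNA of these feedback genes follows recent pathway activity in macrophages and in lymphocytes alike.

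Promoter windows are shown first because several of the 10 genes carry the sequence that the factor itself reads. RefSeq windows of 300 bases (250 before and 50 after the transcription start, GRCm38.p6) were on hand for 8 of the 10 genes, in 11 windows, since Nfkb2 and Tnfaip3 have alternative starts. The κB consensus, searched on both strands, was found in 7 of these 11 windows and in 5 of the 8 genes, namely Nfkb2, Rel, Nfkbia, Nfkbie and Tnfaip3. Of the 3 Nfkb2 windows, 2 overlap and share 1 of the sites, so that site counts in both. A narrower and a wider spelling of the motif were also searched and are not reported here. Over 32851 windows the consensus was found in 4.51%, and over 27025 genes in 5.14%. A match is a description of letters and not a measured binding site. The windows of the 2 genes that rose, Nfkbia and Traf1, are printed here. With them stands 1 window with matches each of Nfkb2 and Tnfaip3, genes that did not pass the test. Of the windows not printed, the other one of Tnfaip3 held 0 matches and the other ones of Nfkb2 held 2 and 1. Each printed window runs 5′ to 3′ on the strand of its gene, with consensus matches in capitals.
Nfkbia, chr12:55492598-55492897, minus strand: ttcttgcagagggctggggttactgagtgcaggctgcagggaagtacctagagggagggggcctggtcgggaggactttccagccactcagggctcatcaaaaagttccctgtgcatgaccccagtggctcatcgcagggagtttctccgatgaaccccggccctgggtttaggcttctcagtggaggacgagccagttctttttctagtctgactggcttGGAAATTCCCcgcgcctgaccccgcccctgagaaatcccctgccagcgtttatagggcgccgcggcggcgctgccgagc
Traf1, chr2:34961723-34962022, minus strand: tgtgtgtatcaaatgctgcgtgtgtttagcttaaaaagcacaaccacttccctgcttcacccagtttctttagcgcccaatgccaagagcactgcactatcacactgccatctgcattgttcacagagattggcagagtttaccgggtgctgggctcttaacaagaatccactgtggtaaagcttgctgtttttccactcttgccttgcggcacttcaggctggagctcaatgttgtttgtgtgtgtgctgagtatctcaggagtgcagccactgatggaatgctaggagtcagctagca
Nfkb2, chr19:46304487-46304786, plus strand: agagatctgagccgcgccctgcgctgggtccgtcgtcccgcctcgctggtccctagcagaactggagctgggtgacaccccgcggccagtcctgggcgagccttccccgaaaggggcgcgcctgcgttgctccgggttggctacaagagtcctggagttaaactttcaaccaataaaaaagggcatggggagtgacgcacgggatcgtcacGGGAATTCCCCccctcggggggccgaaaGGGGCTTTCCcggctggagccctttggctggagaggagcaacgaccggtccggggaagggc
Tnfaip3, chr10:19015361-19015660, minus strand: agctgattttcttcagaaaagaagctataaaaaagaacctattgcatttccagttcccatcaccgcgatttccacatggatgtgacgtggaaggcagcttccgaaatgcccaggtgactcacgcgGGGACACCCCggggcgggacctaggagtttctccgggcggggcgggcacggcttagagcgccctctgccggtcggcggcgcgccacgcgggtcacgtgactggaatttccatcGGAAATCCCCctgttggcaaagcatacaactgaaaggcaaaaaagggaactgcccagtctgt
In Nfkbia the single match began at position -29, where -1 is the last base before the start. In Nfkb2 a run of capitals at -39 holds 2 overlapping matches and a further match began at -11. In Tnfaip3 matches began at -125 and -12. The Traf1 window held no consensus match, which says only that these letters are not in this window.

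Each library held 14156421 to 16169060 reads in genes, worked back from the deposited values, and 10658 to 11219 genes per sample reached 1 FPKM (fragments per kilobase of gene, scaled to sequencing depth). Of 11193 genes tested, 533 (4.76%) passed at an adjusted p below 0.05, of which 300 (2.68%) were higher and 233 (2.08%) lower in diabetic samples. The median log2 fold change over all genes tested was -0.01. Among macrophage markers, Adgre1 (F4/80) ranged from 185 to 310.2 FPKM in diabetic and from 256 to 310.1 FPKM in control samples, while Itgam (CD11b) stood at 0.079 to 0.133 FPKM in diabetic and 0.058 to 0.246 FPKM in control samples, a low value for a marker of this cell type. Other leukocytes were present. The summed FPKM of 24 T cell markers was 644, 1078, 300.5 and 922 in diabetic 1 to 4, against 209, 162, 229, 169.6 and 173 in control 1 to 5. Among the 22 of these that were tested, 21 rose and 0 fell, among them Cd3e, with a log2 fold change of 2.21, and Cd3g, with one of 2.33 (adjusted p = 0.0055 each). The summed FPKM of 16 B cell markers was 1678 to 3605 in diabetic and 1095 to 2296 in control samples, with 4 higher (Fcmr, Vpreb3, Ighd and Fcer2a) and 0 lower among 15 tested. That of 13 macrophage markers, 12 of them in the table, was 6079 to 10194 in diabetic and 7691 to 11537 in control samples, with 1 fall among 11 tested (Mrc1, adjusted p = 0.033, lost on leaving out any sample but diabetic 3). Of these 11, 1 had a positive log2 fold change, where 47.7% of all tested genes did. In bulk samples of this kind, fewer cells of a type and less RNA per cell cannot be told apart.

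Taken as 10 genes, 2 rose in diabetic samples (Nfkbia and Traf1), 0 fell and 8 did not pass. The count was 0 with no filter on low values or with replicate number as a block. It was also 0 without diabetic 1, diabetic 2, diabetic 4 or control 3. It was 1 with a pseudocount of 0.1 or scaling by plain totals, and without control 1, control 2 or control 4. The share of all tested genes called higher was 2.68%. The log2 fold changes were positive for 9 of the 10, where 47.7% of all tested genes were positive, and their median was 0.19. Nfkb2 was the exception at -0.04. Among the positive ones, Nfkb1 (0.03), Rela (0.03) and Nfkbie (0.05) lay close to 0. Nfkb2 and these genes changed sign in some alternatives. The highest ratio of group means, diabetic over control, was 1.50, for Traf1.

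Nfkbia and Traf1 were the genes whose groups did not overlap. Genes with all diabetic samples above all control samples made up 4.82% of those tested, and genes with all diabetic samples below made up 4.6%.

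**Figure D1:**
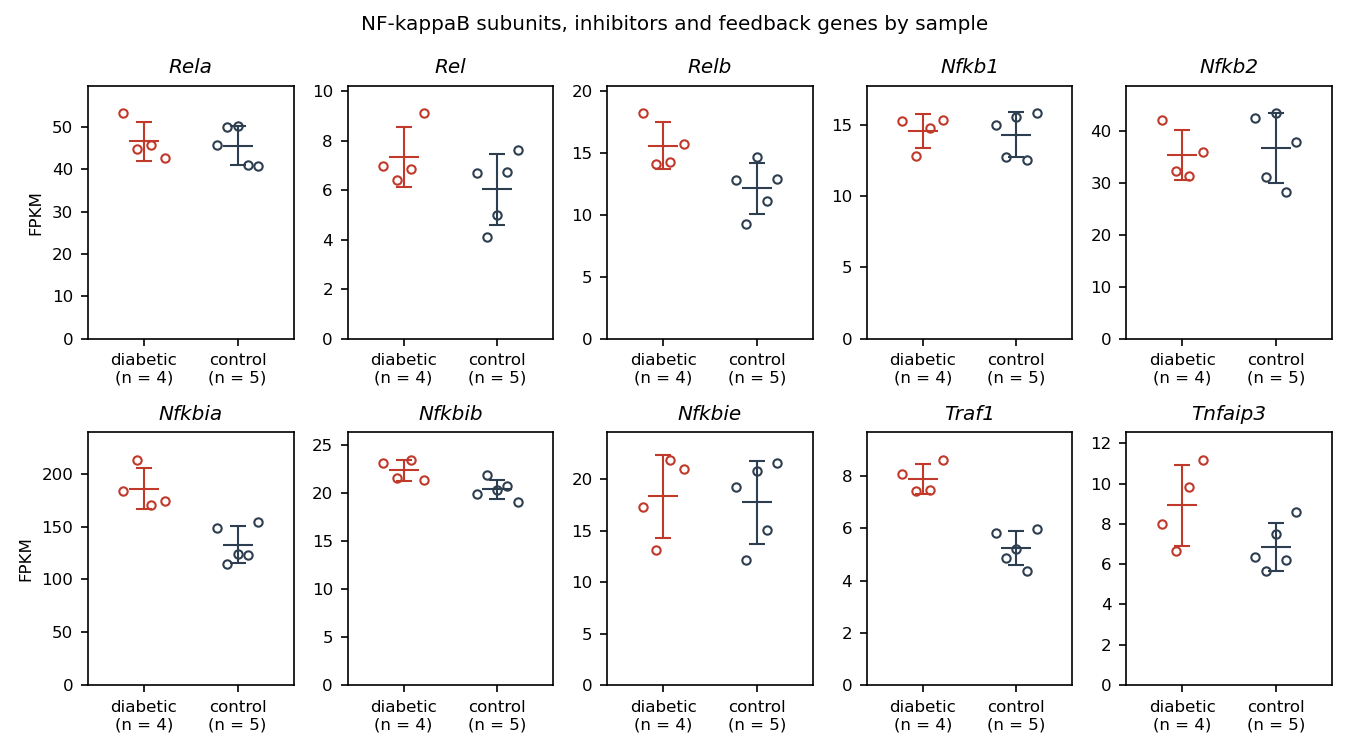
FPKM of each of the 10 genes in 4 diabetic samples (red, left) and 5 control samples (dark, right), with open circles for samples, and bars for the mean and SD. All diabetic samples lie above all control samples for Nfkbia and Traf1, and the groups overlap in the other 8 panels.

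Nfkbia encodes IκBα, the main inhibitor that NF-κB induces against itself (MGP_C57BL6NJ_G0020140, chromosome 12, 56166435 to 56169679, minus strand). It had 184, 213, 171 and 175 FPKM in diabetic 1 to 4, against 148, 114, 124, 123 and 154 FPKM in control 1 to 5. The lowest diabetic sample was 16.2 FPKM above the highest control sample, and diabetic 2 stood highest of all. The means were 186 ± 19.4 FPKM in diabetic (SD, n = 4) and 133 ± 17.5 FPKM in control samples (SD, n = 5), a ratio of 1.40. The log2 fold change was 0.48 (SE 0.12, 95% interval 0.21 to 0.75, adjusted p = 0.0496). The adjusted p lay at the edge of the threshold. With each sample left out in turn it passed in 2 of 9 fits, without diabetic 3 (0.033) and without control 5 (0.048). It did not pass without diabetic 2 (0.15), control 3 (0.12), diabetic 1 (0.11), diabetic 4 (0.104), control 4 (0.098), control 2 (0.079) or control 1 (0.061). Over those 9 fits the log2 fold change kept its sign and ran from 0.41 to 0.54.

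Traf1 encodes an adaptor of the tumour necrosis factor receptor family that NF-κB induces, known from both lymphocytes and activated macrophages (MGP_C57BL6NJ_G0026064, chromosome 2, 34528403 to 34549191, minus strand). It had 8.10, 7.43, 7.46 and 8.64 FPKM in diabetic 1 to 4, against 5.83, 4.87, 5.23, 4.39 and 5.97 FPKM in control 1 to 5. The diabetic samples were close together and all lay above the control samples, by 1.46 FPKM at the nearest. The means were 7.91 ± 0.578 FPKM in diabetic (SD, n = 4) and 5.26 ± 0.660 FPKM in control samples (SD, n = 5). The log2 fold change was 0.51 (SE 0.10, 95% interval 0.28 to 0.74, adjusted p = 0.023). With each sample left out in turn it passed in 5 of 9 fits, and not without diabetic 4 (adjusted p = 0.084), diabetic 1 (0.064), diabetic 2 (0.0600) or control 3 (0.059). With no filter on low values it did not pass either (0.053), nor with replicate number as a block (0.092). Traf1 rests on 543 to 1188 reads per sample, for which counting error alone gives a coefficient of variation of 3.42%, against a measured 7.31% in diabetic and 12.6% in control samples.

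The T cell marker sum differed between the groups in the same direction as these rises. Like Traf1 and Nfkbia, it was higher in every diabetic sample than in any control sample. Among diabetic samples it was highest in diabetic 2, at 1078 FPKM, where Traf1 was lowest (7.43 FPKM) and Nfkbia highest (213 FPKM), and lowest in diabetic 3, at 300.5 FPKM, where Traf1 had 7.46 FPKM and Nfkbia was lowest (171 FPKM). The part of T cell or B cell RNA in both rises was not tested.

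**Figure D2:**
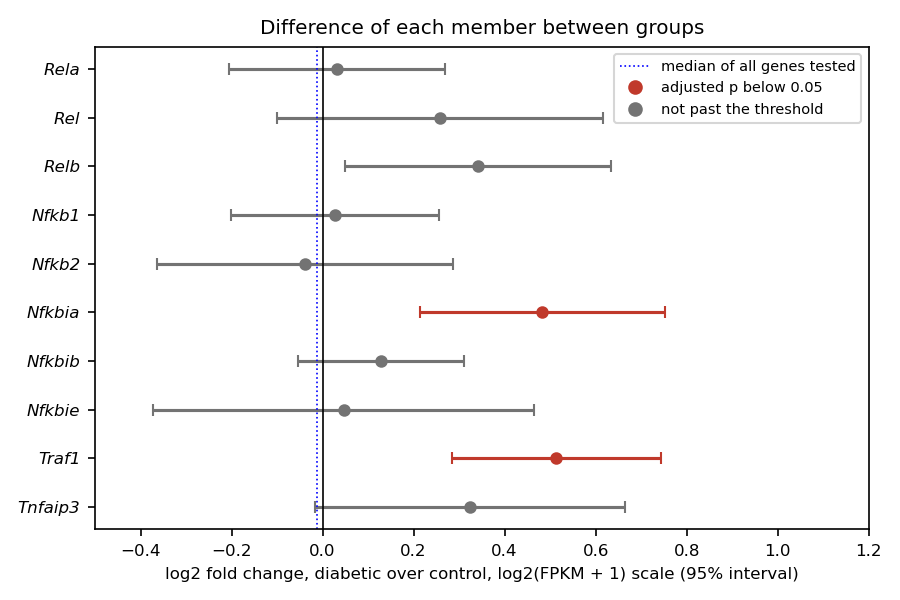
Log2 fold change of each gene, diabetic over control, on the log2(FPKM + 1) scale, with its 95% interval from the fit over all genes. The intervals of Traf1 (0.28 to 0.74), Nfkbia (0.21 to 0.75) and Relb (0.05 to 0.63) lie above 0, and Traf1 and Nfkbia pass at an adjusted p below 0.05.

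The other IκB proteins and A20 did not pass. Nfkbib encodes IκBβ, which binds a similar set of dimers and is not strongly induced by the pathway (chromosome 7, 28497390 to 28506651, minus strand). It had 23.2, 21.5, 23.5 and 21.3 FPKM in diabetic 1 to 4, against 19.9, 21.9, 20.3, 20.7 and 19.1 FPKM in control 1 to 5. It was the steadiest of the 10 genes, with a coefficient of variation of 4.94% in diabetic and 5.06% in control samples, close to the 3.80% of counting error alone. Its log2 fold change was 0.13 (95% interval -0.05 to 0.31, adjusted p = 0.39). Nfkbib shares 778 bases with Sirt2 on the opposite strand (36.4 FPKM in diabetic and 38.3 FPKM in control samples on average). The strand setting of the counting is not given in the sources used here, so reads of the 2 genes may be mixed.

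Nfkbie encodes IκBε, an inhibitor induced later than IκBα and abundant in B cells and macrophages (chromosome 17, 48584579 to 48592424, plus strand). It had 17.3, 13.1, 21.9 and 21.0 FPKM in diabetic 1 to 4, against 19.2, 12.2, 20.8, 15.1 and 21.6 FPKM in control 1 to 5. The groups covered nearly the same range. Its log2 fold change was 0.05 (95% interval -0.37 to 0.46, adjusted p = 0.91).

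Tnfaip3 encodes A20, a ubiquitin-editing enzyme that ends signalling upstream of the IκB kinases (chromosome 10, 17118765 to 17134720, minus strand). It had 8.01, 6.63, 9.83 and 11.2 FPKM in diabetic 1 to 4, against 6.36, 5.66, 7.48, 6.21 and 8.61 FPKM in control 1 to 5. Diabetic 3 and diabetic 4 were above every control sample and diabetic 2 lay among them. The log2 fold change was 0.32 (95% interval -0.02 to 0.67, adjusted p = 0.24). Its adjusted p ran from 0.17 to 0.51 over 18 alternatives.

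Among the IκB genes, Nfkbia made up most of the message. It held 82.0%, 86.0%, 79.0% and 80.5% of the summed FPKM of Nfkbia, Nfkbib and Nfkbie in diabetic 1 to 4, against 79.2%, 77.1%, 75.2%, 77.4% and 79.1% in control 1 to 5. The sum itself was 225, 248, 216 and 217 FPKM in diabetic 1 to 4, against 188, 149, 166, 158 and 195 FPKM in control 1 to 5. Every diabetic sum was above every control sum. These sums were chosen after the values were seen and were not tested.

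The 5 subunits divide into those with a transactivation domain (Rela, Rel and Relb) and the precursors p105 and p100, from Nfkb1 and Nfkb2, that are cut to p50 and p52. None of the 5 passed. Relb encodes RelB, the partner of p52 in the alternative arm and a gene of dendritic cells and lymphoid tissue (chromosome 7, 18504707 to 18532383, minus strand). It had 18.2, 14.1, 14.3 and 15.7 FPKM in diabetic 1 to 4, against 12.8, 9.27, 14.7, 11.1 and 12.9 FPKM in control 1 to 5. All diabetic samples were above the control mean, and control 3 lay above diabetic 2 and diabetic 3. The means were 15.6 ± 1.91 FPKM in diabetic (SD, n = 4) and 12.1 ± 2.06 FPKM in control samples (SD, n = 5). The log2 fold change was 0.34 (SE 0.13, 95% interval 0.05 to 0.63, adjusted p = 0.16), and the adjusted p ran from 0.077 to 0.33 over 18 alternatives.

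Rel encodes c-Rel, best known for its part in lymphocyte activation and in interleukin-12 expression by macrophages (chromosome 11, 22367386 to 22402415, minus strand). It had 6.95, 6.41, 6.84 and 9.11 FPKM in diabetic 1 to 4, against 6.70, 4.12, 5.01, 6.71 and 7.63 FPKM in control 1 to 5. Diabetic 4 was the highest and control 2 the lowest, with the other samples between 5.01 and 7.63 FPKM. The log2 fold change was 0.26 (95% interval -0.10 to 0.62, adjusted p = 0.38).

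Rela encodes p65, the transactivating partner in the classical p50 and p65 dimer (chromosome 19, 2688916 to 2699563, plus strand). It had 53.3, 44.9, 45.7 and 42.6 FPKM in diabetic 1 to 4, against 45.8, 50.2, 50.4, 41.1 and 40.9 FPKM in control 1 to 5. Its log2 fold change was 0.03 (95% interval -0.21 to 0.27, adjusted p = 0.89).

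Nfkb1, the gene of p105 and p50 (chromosome 3, 143323708 to 143441258, minus strand), had 15.2, 12.8, 14.8 and 15.3 FPKM in diabetic 1 to 4, against 14.9, 12.7, 15.5, 12.5 and 15.8 FPKM in control 1 to 5 (log2 fold change 0.03, 95% interval -0.20 to 0.26, adjusted p = 0.90). Nfkb2, the gene of p100 and p52 (chromosome 19, 47134670 to 47143311, plus strand), had 42.1, 32.3, 31.4 and 36.0 FPKM in diabetic 1 to 4, against 42.5, 31.2, 43.5, 28.2 and 38.0 FPKM in control 1 to 5 (log2 fold change -0.04, 95% interval -0.36 to 0.29, adjusted p = 0.90). For both precursors the lowest and the highest value belonged to control samples. The intervals for Rela, Nfkb1 and Nfkb2 bound any difference in these samples but do not show that the levels were equal.

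The make-up of the subunit pool is independent of how samples were scaled against each other. Relb made up 13.4%, 12.8%, 12.6% and 13.2% of the summed FPKM of the 5 subunits in diabetic 1 to 4, against 10.4%, 8.63%, 11.4%, 11.1% and 11.2% in control 1 to 5. The groups did not overlap in this share, although they did in Relb FPKM. The sum of the 5 subunits was 136, 111, 113 and 119 FPKM in diabetic 1 to 4, against 123, 107, 129, 99.6 and 115 FPKM in control 1 to 5. Rela was the largest part, with 39.1% ± 2.21 in diabetic (SD, n = 4) and 39.9% ± 4.32 in control samples (SD, n = 5), followed by Nfkb2, with 29.6% ± 1.39 in diabetic and 31.7% ± 2.84 in control samples. The share of Relb was chosen after the values were seen and is given without a test.

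**Figure D3:**
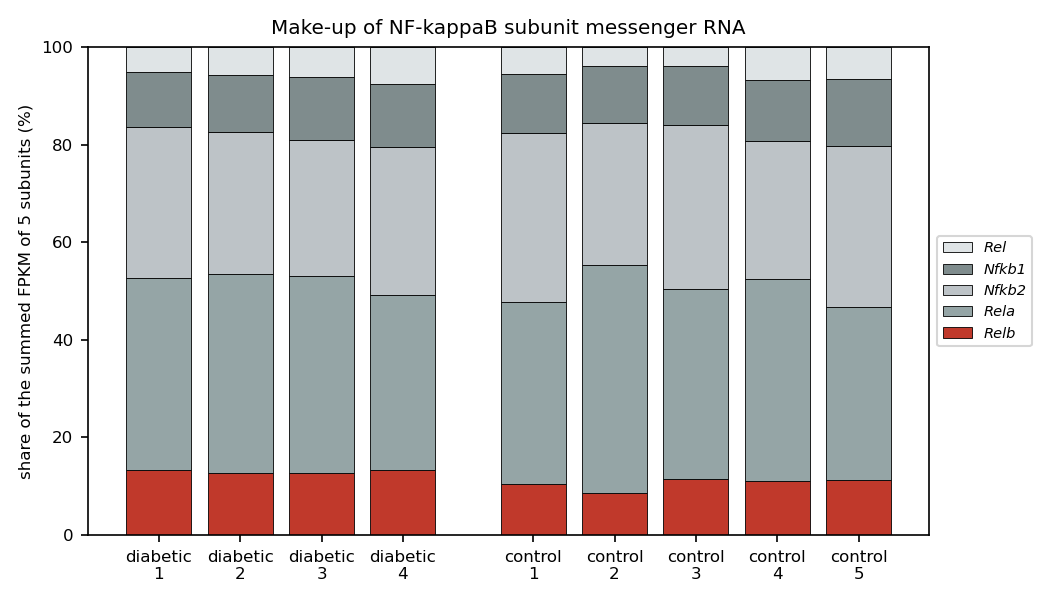
Share of each subunit in the summed FPKM of the 5 subunits (%), 1 bar per sample, with 4 diabetic samples left and 5 control samples right. The red band at the base is Relb, 12.6% to 13.4% in diabetic and 8.63% to 11.4% in control samples.

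Ordered by level per gene length, Nfkbia was highest, followed by Rela, Nfkb2, Nfkbib and Nfkbie in diabetic and in control samples alike. Rela was above Nfkb2 within every sample of either group, while in control samples the ranges of these genes overlapped. Nfkbie could not be told from its lower neighbour by range in either group, which was Relb in diabetic and Nfkb1 in control samples. Relb stood above Nfkb1 in 3 of 4 diabetic samples, and Nfkb1 stood above Relb in 5 of 5 control samples. The lowest levels were those of Tnfaip3, Traf1 and Rel in diabetic samples and of Tnfaip3, Rel and Traf1 in control samples, with ranges that overlapped between neighbours.

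The 10 genes moved together only in part across samples. On the log2 scale, 9, 5, 9 and 8 of them were above their own control mean in diabetic 1 to 4, against 8, 2, 6, 2 and 8 in control 1 to 5. Control 2 had the lowest value of all 9 samples for 5 genes (Relb, Rel, Nfkbia, Nfkbie and Tnfaip3), and control 4 for 3 (Nfkb1, Nfkb2 and Traf1). A diabetic sample was the highest of the 9 for 8 of the 10 genes: diabetic 4 for Rel, Traf1 and Tnfaip3, diabetic 1 for Rela and Relb, diabetic 3 for Nfkbib and Nfkbie, and diabetic 2 for Nfkbia. In diabetic 2 the Nfkbia value was 0.69 above its control mean on the log2 scale while Nfkbie was 0.38 below its own.

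Likeness of pattern was measured as the root mean square difference between centred log2(FPKM + 1) profiles over the 9 samples, as a description. Closest to Nfkbia among the other tested genes were Hdac1 (0.088) and Tapt1 (0.093), and closest to Traf1 were Pml (0.061) and Usp10 (0.090). For scale, the profiles of Nfkbia and Traf1 themselves had a root mean square of 0.28 each, and they differed from one another by 0.13. Relb was closest to Mthfd2 (0.074) and Il9r (0.094), Rel to Map3k1 (0.043) and Srsf2 (0.060), and Tnfaip3 to Spred2 (0.11) and Gltscr1l (0.12). Rela was closest to Sec24c (0.038) and Fam193a (0.042), Nfkb1 to Scaf4 (0.045) and Arhgap35 (0.050), and Nfkb2 to Rbm15b (0.069) and Atxn2l (0.079). The neighbours of Nfkbib were Zcchc9 (0.046) and Paxip1 (0.050), and those of Nfkbie were Traf3 (0.12) and Ep300 (0.12).

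Around these genes, 126 others of the pathway were listed in 9 groups by role, of which 103 were tested. Of these, 9 rose and 1 fell, 9.71% of those tested, beside 4.76% of all genes (2.68% rose and 2.08% fell). The median log2 fold change of the 103 was 0.03. These lists were chosen with earlier results of these data known, so the share is a description and not an independent test. The 10 changed genes became 6 with no filter, 20 with array weights and 2 with the replicate block. Upstream, the 6 IκB kinase genes did not pass. Map3k14, the gene of NIK, had 6.27 ± 0.853 FPKM in diabetic (SD, n = 4) and 5.03 ± 0.923 FPKM in control samples (SD, n = 5; log2 fold change 0.28, adjusted p = 0.24). Ikbke, the gene of IKKε, had 15.5 ± 2.58 FPKM in diabetic and 18.6 ± 2.39 FPKM in control samples (log2 fold change -0.25, adjusted p = 0.28). The median of the kinases was -0.05. Neither of the 2 atypical IκB genes tested passed (Nfkbid 0.44, adjusted p = 0.20, and Bcl3 0.16, adjusted p = 0.67).

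Of 26 adaptors and ubiquitin ligases, 1 rose and 0 fell, beside 2.68% of all genes that rose, with a median of 0.09. Traf5, an adaptor best known from lymphocytes, had 8.59 ± 1.35 FPKM in diabetic (SD, n = 4) and 5.85 ± 0.420 FPKM in control samples (SD, n = 5), with a log2 fold change of 0.48 (SE 0.11, adjusted p = 0.036). With each sample left out in turn it passed in 2 of 9 fits, those without diabetic 3 or control 2. Of 15 other negative regulators, 0 rose and 1 fell, beside 2.08% of all genes that fell. Tnip2, which encodes ABIN-2, a partner of A20, had 14.9 ± 0.825 FPKM in diabetic (SD, n = 4) and 22.02 ± 2.71 FPKM in control samples (SD, n = 5), with a log2 fold change of -0.53 (SE 0.11, adjusted p = 0.023). The call was lost without diabetic 1, diabetic 2, diabetic 4 or control 3.

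Of 18 receptors, 3 rose and 0 fell, where 2.68% of all tested genes rose, with a median of -0.06. They were Cd27, a receptor of T and B cells (log2 fold change 1.70, SE 0.28, adjusted p = 0.013), Tnfrsf18, the GITR receptor of T cells (1.14, SE 0.22, adjusted p = 0.019), and Il18r1, the interleukin-18 receptor of T and natural killer cells (0.92, SE 0.15, adjusted p = 0.011). Of 8 tested ligands 1 rose and 0 fell, beside the same 2.68%, with a median of 0.18. Lta, lymphotoxin alpha of lymphocytes, was that ligand (0.91, SE 0.21, adjusted p = 0.036), with 232 reads in all over the diabetic and 102 over the control libraries. Cd27 and Il18r1 passed whichever of the 9 samples was left out. Tnfrsf18 was lost without diabetic 1, diabetic 2 or diabetic 4, and Lta without these samples or control 3, control 4 or control 5. Like the T cell marker sum given above, these genes were higher in every diabetic sample than in any control sample. Among diabetic samples, Cd27, Tnfrsf18 and Lta were lowest in diabetic 3, as the sum was. Il18r1 was lowest in diabetic 2 (2.71 FPKM), where the sum was highest, and Lta was highest in diabetic 1 (3.86 FPKM). The part of T cell RNA in these rises was not tested.

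Of 10 tested cytokine and chemokine targets of the classical arm, 1 rose and 0 fell, beside 2.68% of all genes that rose, with a median of 0.10. Ccl5, a chemokine of T cells and activated macrophages, had 89.7 ± 19.4 FPKM in diabetic (SD, n = 4) and 45.9 ± 8.54 FPKM in control samples (SD, n = 5), with a log2 fold change of 0.94 (SE 0.17, adjusted p = 0.017). The other 9 did not pass, with log2 fold changes from -0.79 (Csf1, adjusted p = 0.43) to 1.13 (Ccl7). The genes named from here to the end of the paragraph were chosen after their values were seen. Intervals lay above 0 for the chemokines Ccl7 (1.13, 95% interval 0.17 to 2.09, adjusted p = 0.16), Ccl2 (0.64, 0.18 to 1.10, adjusted p = 0.10) and Ccl22 (0.49, 0.07 to 0.91, adjusted p = 0.16). Ccl7 had 37.4 to 39.0 FPKM in diabetic and 5.77 to 34.8 FPKM in control samples, without overlap. Intervals spanned 0 for Cxcl2 (-0.27, -1.39 to 0.84, adjusted p = 0.79) and for the cytokines Tnf (-0.17, -0.92 to 0.59, adjusted p = 0.81) and Il1b (-0.28, -1.74 to 1.17, adjusted p = 0.84), which stand among the ligands. A further 7 targets lay under the filter, among them Il6, at 0 to 0.224 FPKM in diabetic and 0.0617 to 0.569 FPKM in control samples.

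Of 15 tested survival, adhesion and enzyme targets, 1 rose and 0 fell, beside the same 2.68%, with a median of 0.03. Irf1, a transcription factor that both NF-κB and interferon induce, had 34.3 ± 4.46 FPKM in diabetic (SD, n = 4) and 19.5 ± 1.34 FPKM in control samples (SD, n = 5), with a log2 fold change of 0.77 (SE 0.11, adjusted p = 0.0055). It passed in all 18 alternatives. Also chosen after their values were seen, Nos2 and Ptgs2, enzymes of inflammatory macrophages, lay under the filter, Nos2 at 0 to 0.118 FPKM in diabetic and 0 to 0.030 FPKM in control samples. Of 7 targets of the alternative arm, 3 were tested and 2 rose, where 2.68% of all tested genes rose. The summed FPKM of the 6 listed in the table was 185, 209, 95.5 and 206 in diabetic 1 to 4, against 68.4, 47.8, 69.6, 48.8 and 70.6 in control 1 to 5. Like the T cell marker sum, it was lowest in diabetic 3 and highest in diabetic 2 among diabetic samples, and the part of T cell RNA was not tested. Ccr7, the homing receptor of naive T cells and migrating dendritic cells, had 135 ± 50.1 FPKM in diabetic (SD, n = 4) and 32.2 ± 5.09 FPKM in control samples (SD, n = 5), with a log2 fold change of 1.95 (SE 0.27, adjusted p = 0.00635). By group mean, Ccr7 was the largest part of the sum in both groups. Icosl, the ligand of the T cell receptor ICOS on B cells and myeloid cells, had 19.9 ± 4.25 FPKM in diabetic and 9.96 ± 1.95 FPKM in control samples (log2 fold change 0.92, SE 0.17, adjusted p = 0.018), and was lost without diabetic 2 or diabetic 4. Cxcl13, the remaining gene tested, did not pass, with 18.9 ± 8.13 FPKM in diabetic and 18.8 ± 8.77 FPKM in control samples (log2 fold change 0.07, adjusted p = 0.95). It was named after its values were seen. Ccl5, Ccr7 and Irf1 passed whichever sample was left out.

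**Figure D4:**
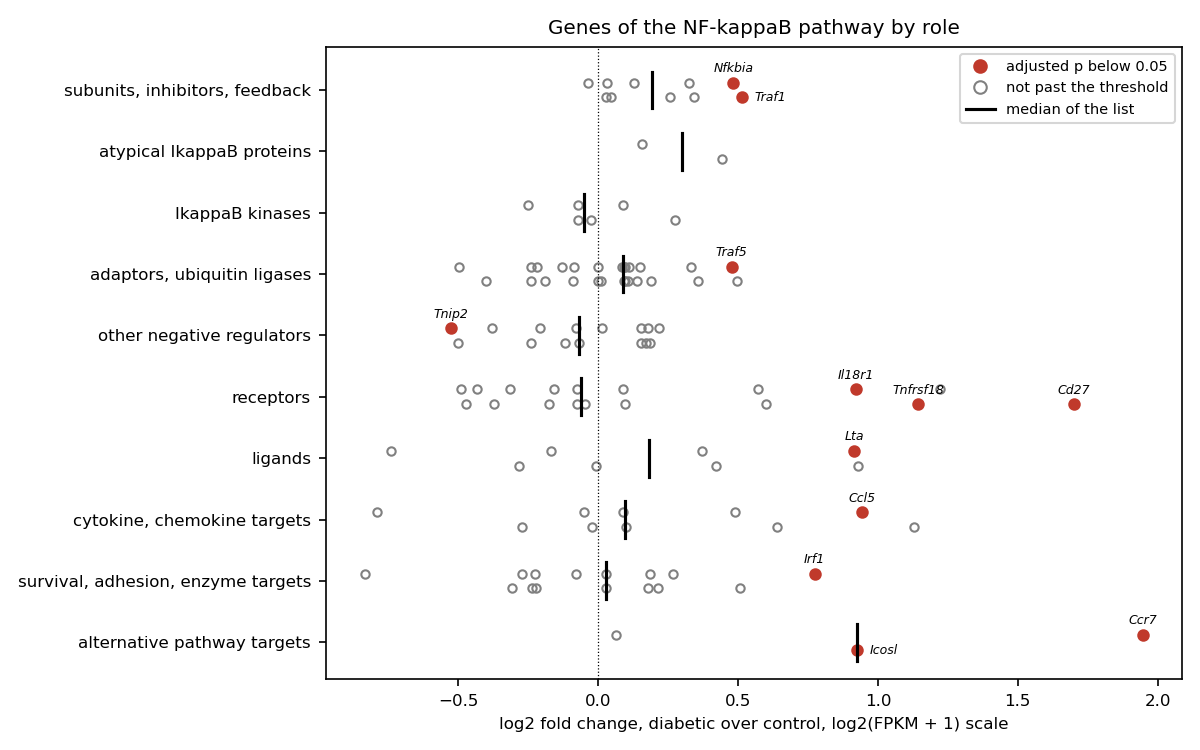
Log2 fold change (diabetic over control, log2(FPKM + 1) scale) of each tested gene of the pathway, by role, with the list median as a black bar. Filled red points pass at an adjusted p below 0.05, and they are Nfkbia, Traf1, 9 further rises and the fall of Tnip2.

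**Figure D5:**
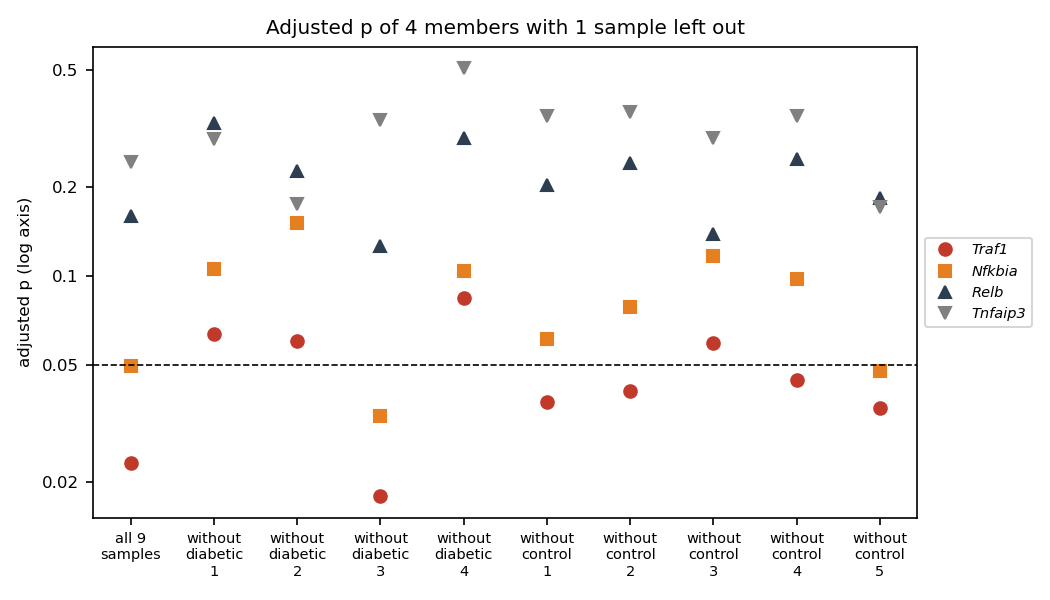
Adjusted p (log axis) of Traf1, Nfkbia, Relb and Tnfaip3 with all 9 samples and with each sample left out in turn, with the threshold of 0.05 as a dashed line. Traf1 stays below the line in 5 of the 9 fits and Nfkbia in 2, while Relb and Tnfaip3 lie above it in all.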

How the data were processed

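The authors deposited 1 table of FPKM values for 9 samples, with gene lengths and positions. Which aligner, counting tool and strand setting made it is not stated in any label or header. All 9 columns matched a sample title and 0 did not. Every value times gene length was a whole multiple of the worth of 1 read (100% within 0.05), and the divisors equal median-of-ratios size factors, so the values are already scaled between samples. GRCm38 and mm10 are named by the submitters' processing notes, yet 0 of 29596 gene names shared with GENCODE M21 (GRCm38) had the same start, so positions are as the table gives them, with no build named.

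Genes of at least 1 FPKM in at least 4 samples were fitted with limma 3.58.1 (R 4.3.3) on log2(FPKM + 1), with trend and robust moderation and group as its single term (n = 9). Tests were two-sided, with Benjamini-Hochberg adjustment over all tested genes. The scale understates changes of low genes. No label says that samples came from separate mice, so p-values may reflect technical spread. The procedure was tested on simulated data. It recovered 78 of 100 changes of 2-fold and 95 of 100 changes of 4-fold, with 8 false calls. Changes below 2-fold, such as those of the members, were not simulated. The members and lists were chosen with earlier results of these data known. Beside the members, genes named are up to 4 passing genes of each list in order of p (or 2 with the smallest p where none passed), and the 2 nearest profiles of each member. Adgre1, Itgam, Ccl2, Ccl7, Ccl22, Csf1, Cxcl2, Cxcl13, Tnf, Il1b, Il6, Nos2 and Ptgs2 lie outside this rule and were chosen after their values were seen. Some genes that this rule names are not reported here. Of 272 listed genes, 252 were matched by name, 7 through a UniProt match in the description, and 13 are not used here. Alternatives were the pseudocount, the filter, the scaling, array weights, plain moderation, a replicate block and leaving out each sample. Scaling by plain totals was added after seeing the data.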

Additional observations from a re-analysis of the deposited data

Results flagged for a closer look

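In 4 of 98 groups examined over 49 named genes (4.08%, where chance gives about 5%), 1 sample stood apart from the others by a gap larger than Dixon's 95% critical value for a group of its size. None of the 10 genes was among them. Bcl3, an atypical IκB protein, stood at 23.5 FPKM in diabetic 1 and at 11.7 to 13.2 FPKM in the other diabetic samples. Mrc1, a macrophage marker, stood at 41.0 FPKM in diabetic 3 and at 17.8 to 20.8 FPKM in the other diabetic samples. Traf5 stood at 6.58 FPKM in control 2 and at 5.50 to 5.76 FPKM in the other control samples. Msln, a mesothelial marker, stood at 0.646 FPKM in control 5 and at 1.38 to 1.62 FPKM in the other control samples.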

How the results depend on the processing

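The counts depended on the settings. The number of changed genes was 533 in the main fit. It was 183 with no filter, 1304 with array weights, 62 with the replicate block and 115 to 1126 with 1 sample left out. The 2 changed members became 1 with a pseudocount of 0.1 or with plain totals scaling, 0 with no filter or the replicate block, and 0 to 2 with 1 sample left out. The 10 changed genes of the other lists became 6 with no filter, 20 with array weights and 2 with the replicate block, and 5 to 18 with 1 sample left out. The share of higher among changed genes was 56.3%, and 70.5% with no filter and 72.6% with the replicate block. Nfkbia did not pass with a pseudocount of 0.1 (log2 fold change 0.49, adjusted p = 0.0504), no filter (0.48, 0.097), plain totals scaling (0.52, 0.057) or the replicate block (0.54, 0.12), nor Traf1 with no filter (0.51, 0.053) or the replicate block (0.55, 0.092). These alternatives kept the direction. With array weights Nfkb1 became -0.0055 and Nfkbie -0.11, and with the replicate block Rela became -0.0064. With 1 sample left out, log2 fold changes ran from 0.41 to 0.54 for Nfkbia, 0.46 to 0.55 for Traf1, 0.26 to 0.41 for Relb, 0.15 to 0.34 for Rel, 0.22 to 0.44 for Tnfaip3, 0.11 to 0.15 for Nfkbib, -0.017 to 0.082 for Nfkb1, -0.12 to 0.027 for Nfkb2, -0.034 to 0.072 for Rela and -0.074 to 0.19 for Nfkbie. The last 4 changed sign. The other causes were not tested, beyond the larger number of genes adjusted for with no filter (22471). Whether replicate numbers pair the samples is not settled here. The deviations of same-numbered samples correlated at 0.023, 0.16, -0.26 and -0.18, and so few pairs cannot decide it. The block leaves control 5 without a partner. The depth, 435 reads or more for each member in each sample, leaves counting error below the spread between samples.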

Other observations

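The messenger RNA of inhibitor and target can be compared within a sample, which does not measure the balance of their proteins. The ratio of Nfkbia to Rela FPKM was 3.45, 4.75, 3.73 and 4.10 in diabetic 1 to 4, against 3.24, 2.28, 2.47, 2.99 and 3.78 in control 1 to 5. Control 5 lay above diabetic 1 and diabetic 3, so the groups overlapped in this ratio. It was chosen after the values were seen and was not tested. Of the other cell types looked for, the summed FPKM of 12 dendritic cell markers was 144 to 184 in diabetic and 145 to 255 in control samples, with 1 rise (Dpp4, adjusted p = 0.015) and 1 fall (Batf3, adjusted p = 0.025) among 7 tested. Natural killer cells had 1 rise among 8 tested markers (Klrd1, adjusted p = 0.013), and large peritoneal macrophages 1 rise (Naip1, adjusted p = 0.047) and 1 fall (Cd9, adjusted p = 0.031) among 8. Over all tested genes, 2.68% rose and 2.08% fell. With each sample left out in turn, Dpp4 passed in all 9 fits and Klrd1 in 8 (not without diabetic 2). Batf3 and Cd9 passed in 3 and Naip1 in 2, and each of these was lost without diabetic 1, diabetic 2, control 3, control 4 or control 5. Batf3 and Cd9 were also lost without diabetic 4, and Naip1 without control 1 or control 2. No marker of neutrophils (7 tested), eosinophils (3), mast cells and basophils (6), red blood cells (2) or mesothelium and fibroblasts (7) passed. In this order, 2, 0, 0, 0 and 5 of the tested markers had a positive log2 fold change, where 47.7% of all tested genes did. The median was -1.27 for eosinophils and -0.84 for mast cells and basophils. The smallest adjusted p in these were those of Padi4 (0.25), Siglecf (0.082), Tpsb2 (0.053), Hba-a1 (0.17) and Msln (0.20).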
